A study of Drosophila melanogaster with 12 samples.

Results

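The proteasome subunit genes of Drosophila melanogaster were followed in embryos that expressed 1 of 3 constructs in the ventral midline. Members were all genes with a probe whose single symbol in the platform annotation begins with Prosalpha or Prosbeta, or with Rpn or Rpt and a digit. The rule uses names and no measured value. It found 41 genes on 42 probes, of 11980 named genes and 14485 probes in all, since Prosbeta7 has 2 probes. These are 12 core particle genes (7 of the alpha ring and 5 of the beta ring), 14 regulatory particle genes (7 of the base and 7 of the lid) and 15 duplicate genes, whose symbols carry an added R or T. Prosbeta1, Prosbeta6, Rpt1, Rpt6, Rpn9, Rpn10 and the duplicate Rpt6R had no probe with a symbol of their own and were not analysed here.

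The proteasome is the protease complex that degrades ubiquitin-tagged proteins in the cytoplasm and nucleus. Its barrel-shaped core is made of outer alpha rings, which gate the entrance, and inner beta rings, where Prosbeta1, Prosbeta2 and Prosbeta5 cut peptide bonds. The regulatory particle caps the core: its base holds the Rpt ATPases, which unfold substrates, and its lid holds Rpn11, which removes the ubiquitin chain. Flies also carry duplicate subunit genes, several of which are known from the testis, where they replace the common subunit.

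Total RNA was taken from whole embryos aged 3.5 to 4.5 h (stages 8 and 9), reared at 25 °C, from simGal4 mothers crossed to fathers that carried a UAS construct. The simGal4 driver acts in midline cells, so construct-expressing cells are a minority of each RNA sample. The constructs are EnRep, Dichaete wild type (DichaeteWT) and HMG- (written HMG-minus), where Dichaete is a Sox transcription factor of the early nervous system with an HMG DNA-binding domain. The series' design text calls the constructs dominant negative, a term not applied here to the wild type form. Every control embryo had the same driver with UAS-GFP, and each construct was hybridised against GFP on 4 two-colour arrays, 1 for each biological replicate, with the construct in Cy3 on replicates 1 and 2 and in Cy5 on replicates 3 and 4. Values are log2 ratios of construct over GFP, so 0 means equal signal, and a call is a limma p that lies below 0.05 after Benjamini-Hochberg adjustment over the 14485 probes.

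In Cy3 the arrays had median foregrounds from 247 to 433 over backgrounds from 71 to 130. In Cy5 the foregrounds lay from 280 to 421 and the backgrounds from 112 to 196. Precision is limited by how many arrays there are. The Dichaete probe was called higher in DichaeteWT, at 0.47 (adjusted p = 0.0208), but its ratios there were 0.97 and 1.09 with the construct in Cy3 and -0.06 and -0.14 with it in Cy5. It was also high in Cy3 in the other constructs, with 0.68 and 0.71 in EnRep and 0.58 and 0.71 in HMG-minus. The Cy5 arrays read 0.08 and 0.01 in EnRep and -0.28 and -0.24 in HMG-minus. The fitted Dichaete ratios were 0.37 in EnRep (limma adjusted p = 0.055) and 0.19 in HMG-minus (0.317). Of 12 midline genes listed as markers, 7 had a probe, and none was called in a single construct, with 3, 3 and 1 of the 7 at an unadjusted p below 0.05 in EnRep, DichaeteWT and HMG-minus, where 14.1%, 15.6% and 13.0% of all probes had such a p. In the mean of the 3 constructs Tl was called higher, at 0.32 (adjusted p = 0.0312), and comm lower, at -0.26 (0.0222), where 10.0% of all probes were called. In EnRep Tl read 0.84 and 1.01 with the construct in Cy3 and -0.32 and -0.24 with it in Cy5. It read 0.49, 0.21, 0.57 and 0.01 in DichaeteWT and 0.48, 0.74, 0.06 and 0.06 in HMG-minus. In RNA of whole embryos, fewer cells of a type and less RNA per cell cannot be told apart.

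No proteasome probe was called in any single construct. Calls numbered 0 of 42 in EnRep, where 0.753% of all probes were called (0.428% higher and 0.324% lower). They numbered 0 of 42 in DichaeteWT, where 0.863% were called (0.380% and 0.483%), and 0 of 42 in HMG-minus, where 0.856% were (0.421% and 0.435%). At an unadjusted p below 0.05 in limma the counts were 5, 7 and 11 of 42, or 11.9%, 16.7% and 26.2%, beside 14.1%, 15.6% and 13.0% of all probes, so the share was above that of the array in HMG-minus. The 95% intervals of all 42 probes lay between folds of 0.711 and 1.58 in EnRep, 0.675 and 1.46 in DichaeteWT, and 0.710 and 1.59 in HMG-minus. The median absolute ratio was 0.099, 0.11 and 0.114 log2 for the members, beside 0.098, 0.10 and 0.0897 for all probes.

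**Figure D1:**
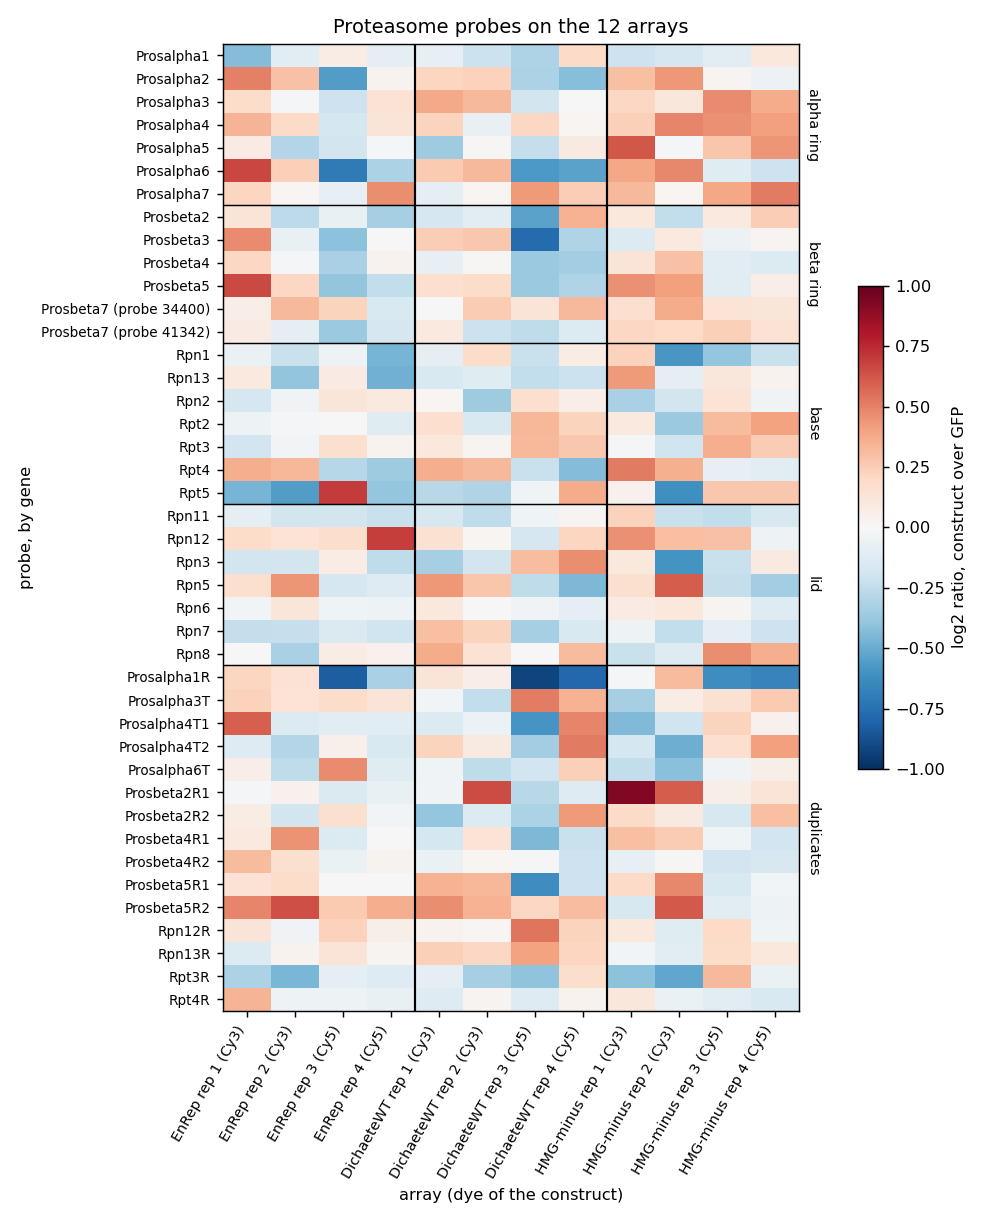
Log2 ratio of construct over GFP for each of the 42 proteasome probes (rows, by role) on each of the 12 arrays (columns, with the dye of the construct), where red is higher and blue lower with the construct. Most rows change colour between arrays of the same construct, and no row has 1 colour on all 12 arrays.

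Of the groups by role, the alpha ring had the highest median ratio, in HMG-minus. There the median over its 7 genes was 0.29, with 6 of 7 above 0, beside 0.03 with 4 of 7 in EnRep and -0.07 with 3 of 7 in DichaeteWT. The median of all probes was 0.01, 0.01 and 0.00. None of these genes passed the test in HMG-minus in the main fit, although Prosalpha4 did in 5 of 23 alternatives. With array weights Prosalpha3, Prosalpha5 and Prosalpha7 passed as well (limma adjusted p = 0.0131, 0.0351 and 0.0178), where 7.59% of all probes were called. Prosalpha5 also passed with print-tip loess (0.0299), where 2.62% were.

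Prosalpha4, an alpha ring subunit, read 0.24, 0.49, 0.45 and 0.41 on the 4 HMG-minus arrays. All 4 were above 0, and all 4 exceeded the highest DichaeteWT value. In EnRep it read 0.34, 0.19, -0.18 and 0.13, and in DichaeteWT 0.22, -0.07, 0.21 and 0.02, so both of those groups lay on either side of 0. The fitted ratio in HMG-minus was 0.40 ± 0.09 (SE, n = 4 arrays), a fold of 1.32, and its limma adjusted p of 0.0624 was the smallest of any member in that construct. It passed the threshold with print-tip loess (0.0254), with the deposited ratios (0.0308), with array weights (0.00377), without EnRep replicate 4 (0.0479) and without DichaeteWT replicate 3 (0.0493), and over all 23 alternatives it ran from 0.00377 to 0.337.

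Prosalpha7, another alpha subunit, read 0.32, 0.02, 0.39 and 0.52 in HMG-minus. It was above 0 on all 4 of those arrays but near 0 on replicate 2. In EnRep it read 0.22, 0.02, -0.08 and 0.46, and in DichaeteWT -0.10, 0.02, 0.43 and 0.24. Fitted ratios were 0.31 ± 0.10 in HMG-minus (adjusted p = 0.173), 0.15 ± 0.10 in EnRep (0.498) and 0.15 ± 0.10 in DichaeteWT (0.485). In EnRep and DichaeteWT these were the alpha ring ratios with the largest moderated t, and in EnRep the sign turned with median centring (-0.10) and in the deposited ratios (-0.01).

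Prosalpha3 and Prosalpha5 also had an unadjusted p below 0.05 in HMG-minus, at 0.29 (adjusted p = 0.241) and 0.33 (0.200). Prosalpha3 was above 0 on all 4 arrays, and Prosalpha5 read 0.62, -0.01, 0.27 and 0.44. The remaining alpha subunits stood at 0.18 for Prosalpha2, 0.13 for Prosalpha6 and -0.10 for Prosalpha1. Prosalpha1 was the 1 alpha gene with a ratio below 0 in every construct, at -0.14, -0.11 and -0.10.

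Beta ring genes spread less widely. Their medians were -0.01 in EnRep, -0.12 in DichaeteWT and 0.05 in HMG-minus, and single ratios ran from -0.20 for Prosbeta4 in DichaeteWT to 0.21 for Prosbeta5 in HMG-minus. Prosbeta4, a structural subunit of the ring, read -0.08, 0.01, -0.37 and -0.35 in DichaeteWT, with the low values on the arrays that carried the construct in Cy5. Its fitted ratio there was -0.20 ± 0.07 (adjusted p = 0.235).

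Of the catalytic subunits, Prosbeta5 and Prosbeta2 were measured. Prosbeta5, the chymotrypsin-like site, read 0.45, 0.41, -0.10 and 0.07 in HMG-minus, for a ratio of 0.21 ± 0.08 (adjusted p = 0.315). In EnRep it read 0.66, 0.20, -0.39 and -0.25, and in DichaeteWT 0.17, 0.19, -0.37 and -0.30, so within each of these constructs the Cy3 arrays lay above 0 and the Cy5 arrays below. The fitted ratios were 0.06 ± 0.08 (0.817) and -0.08 ± 0.08 (0.686), and the first turned negative with median centring, with the deposited ratios and without EnRep replicate 1. Prosbeta2, the trypsin-like site, stood at -0.13 ± 0.13 in EnRep (0.677), -0.12 ± 0.13 in DichaeteWT (0.701) and 0.05 ± 0.13 in HMG-minus (0.915). Without DichaeteWT replicate 3 its DichaeteWT ratio was 0.05, and without HMG-minus replicate 4 its HMG-minus ratio was -0.01.

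The Prosbeta7 probes disagreed. Probe 1000034400 stood at 0.12 in EnRep and 0.18 in DichaeteWT, while probe 1000041342 stood at -0.14 and -0.13. In HMG-minus both were at 0.20, and both were above 0 on all 4 arrays, with 0.17, 0.37, 0.13 and 0.12 on the first and 0.21, 0.20, 0.24 and 0.14 on the second. The adjusted p-values there were 0.354 and 0.300.

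**Figure D2:**
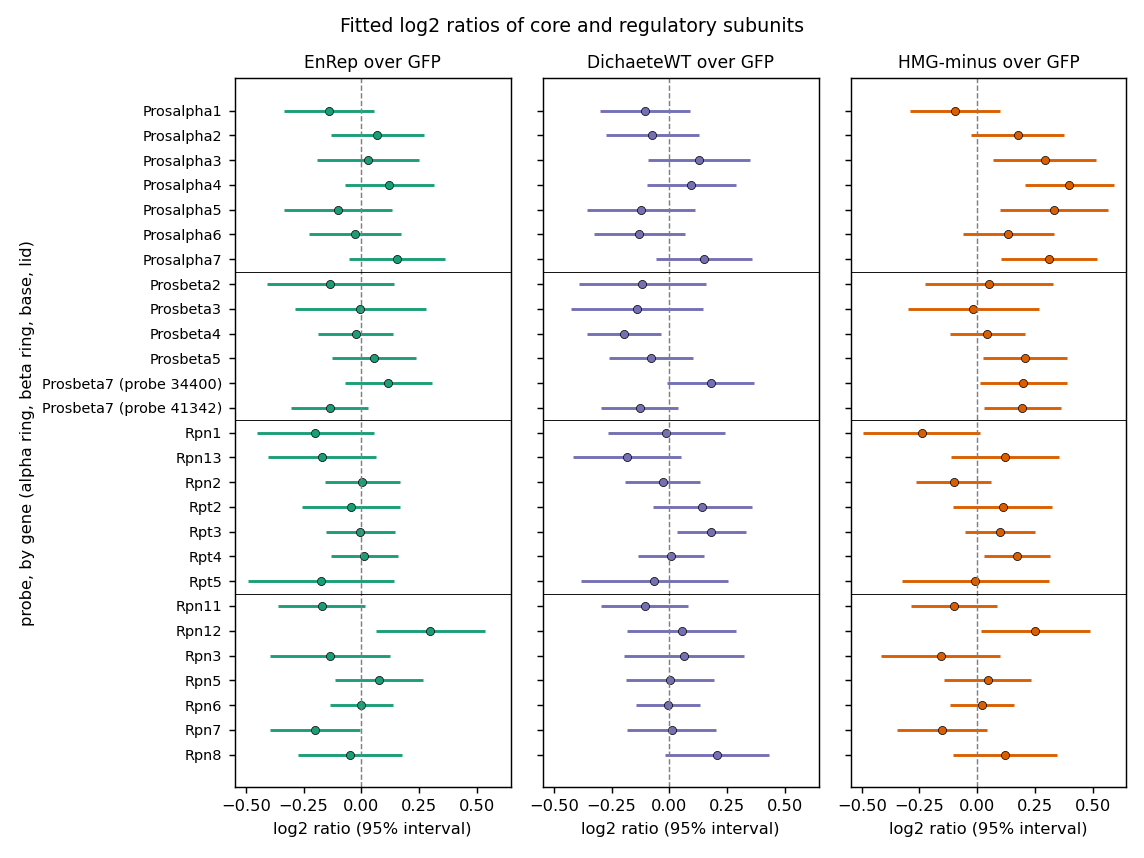
Fitted log2 ratio (point) with its 95% interval (line) for the 27 probes of core and regulatory subunits in each construct over GFP, from the limma fit over 12 arrays. In HMG-minus 9 intervals lie above 0, those of Prosalpha3, Prosalpha4, Prosalpha5, Prosalpha7, Prosbeta5, both Prosbeta7 probes, Rpt4 and Rpn12, and none below, and no probe passed the test after adjustment.

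Over the 14 genes of the regulatory particle the median ratio was -0.05 in EnRep, 0.00 in DichaeteWT and 0.03 in HMG-minus, with 4, 8 and 8 genes above 0. The height against 0 depended on the normalisation: with median centring these medians were -0.24, -0.13 and -0.03, with 1, 4 and 6 genes above 0, and with the deposited ratios the EnRep median was -0.20, with 0 of 14 above 0. In the base, Rpn1, a scaffold that receives ubiquitin carriers, had the lowest ratio of any regulatory gene in HMG-minus, at -0.24 (adjusted p = 0.408). It read 0.23 on replicate 1 and -0.58, -0.39 and -0.23 on the others, and its spots were accepted in both channels on 9 of 12 arrays. In EnRep it was below 0 on all 4 arrays, with -0.07, -0.22, -0.05 and -0.46 and a fitted ratio of -0.20 ± 0.12 (adjusted p = 0.468).

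Among the ATPases, Rpt3 was above 0 on all 4 DichaeteWT arrays, at 0.11, 0.02, 0.33 and 0.27, with a fitted ratio of 0.18 ± 0.07 (adjusted p = 0.236). Rpt4 read 0.52, 0.36, -0.09 and -0.10 in HMG-minus, where its fitted ratio was 0.17 ± 0.07 (adjusted p = 0.295). Rpt4 was above 0 on the 6 arrays with the construct in Cy3 and below 0 on the 6 with it in Cy5. Rpn13, a ubiquitin receptor of the base, was below 0 on all 4 DichaeteWT arrays, with a ratio of -0.18 (adjusted p = 0.438).

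In the lid, Rpn11 and Rpn7 were below 0 on all 4 EnRep arrays. Rpn7, a scaffold subunit, read -0.23, -0.23, -0.14 and -0.20 there, for -0.20 ± 0.09 (adjusted p = 0.334), and it was also below 0 on all 4 HMG-minus arrays, at -0.15 (0.520). In DichaeteWT it read 0.30 and 0.22 with the construct in Cy3 and -0.33 and -0.15 with it in Cy5. Rpn11, the deubiquitinase, stood at -0.17 in EnRep, -0.11 in DichaeteWT and -0.10 in HMG-minus.

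Rpn8, the partner of Rpn11, had the largest moderated t of the lid in DichaeteWT, at 0.21 ± 0.10 (adjusted p = 0.357), from 0.37, 0.15, 0.00 and 0.32. Rpn12, a lid subunit, had the largest in both other constructs, at 0.30 ± 0.11 in EnRep (0.252) and 0.25 ± 0.11 in HMG-minus (0.349). Its spot was accepted in both channels on only 2 of 12 arrays. EnRep replicate 4, at 0.69, stood apart from the other EnRep arrays at 0.19, 0.14 and 0.17, and the EnRep ratio was 0.15 without it. The sign of that ratio turned with no background correction (-0.21) and in the deposited ratios (-0.23). Rpn6, a lid scaffold, stayed between -0.13 and 0.12 on all 12 arrays.

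Core and regulatory subunits are made into 1 complex, so their medians were set side by side array by array, as a description. In HMG-minus the core median was 0.22, 0.20, 0.06 and 0.12 and the regulatory median 0.10, -0.19, 0.07 and -0.04. The core median was above 0 on all 4 arrays and the regulatory median on 2 of 4, and they were about equal on replicate 3. In EnRep the core medians were 0.21, 0.01, -0.20 and -0.01 beside regulatory medians of -0.06, -0.11, 0.04 and -0.16. In DichaeteWT they were 0.11, 0.02, -0.31 and 0.01 beside 0.11, 0.01, -0.04 and 0.07. DichaeteWT replicate 3 had the lowest core median of all arrays and the lowest share of accepted Cy5 spots, 71.9%; the part of spot quality in that value was not tested. Without that array the DichaeteWT core median was 0.01 in place of -0.09.

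**Figure D3:**
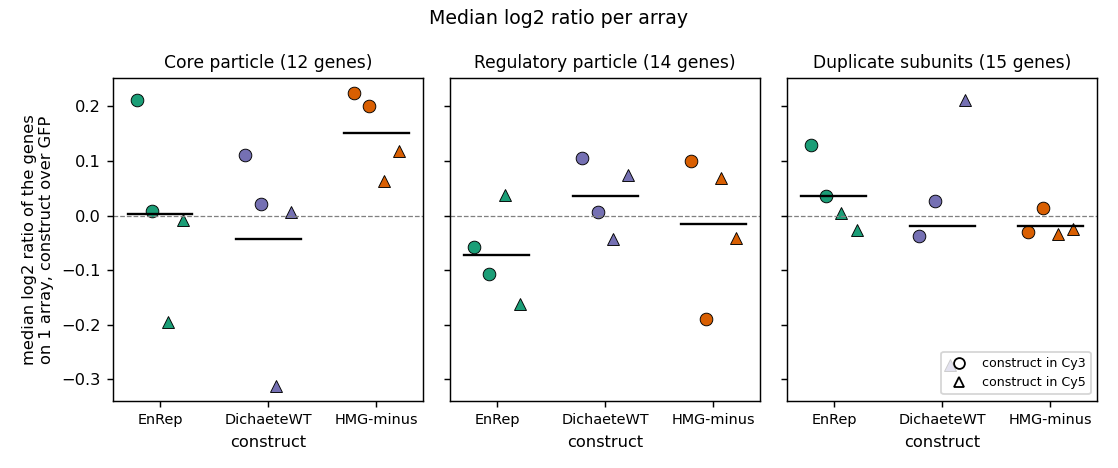
Median log2 ratio of construct over GFP on each array (points, circles for the construct in Cy3 and triangles for Cy5) over the genes of the core particle, the regulatory particle and the duplicates, with the mean of the 4 arrays as a bar. The HMG-minus core medians, 0.06 to 0.22, are all above 0, while every other group has arrays on both sides of 0.

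In HMG-minus, 10 of 12 core genes had a fitted ratio above 0, beside 5 in EnRep and 4 in DichaeteWT. Of all 14485 probes, 7140, 7685 and 7501 were above 0 in HMG-minus, EnRep and DichaeteWT. With the deposited ratios the core counts were 10, 1 and 5. With median centring in place of loess they were 8, 1 and 1, and the core medians 0.13, -0.19 and -0.21, so the height of the core against 0 depended on how the arrays were normalised. Array weights raised the number of proteasome probes called in HMG-minus from 0 to 8 (19.0% of the members), of which 7 were higher. The calls over all probes rose from 124 to 1099 (7.59%). Print-tip loess gave 3 calls, Prosalpha4, Prosalpha5 and Prosbeta2R1, all higher (7.14% of the members), and 380 over all probes (2.62%). Transcripts that mothers load into the egg also read higher in the same arrays: all 8 measured genes of a maternal marker list were above 0 in HMG-minus, with a median of 0.32 and array medians of 0.17 to 0.40, beside -0.21 to 0.19 in EnRep and -0.28 to 0.17 in DichaeteWT. Oskar (osk), a germ plasm mRNA of that list, was called in HMG-minus with both of its probes, at 0.72 each. Of 12 later muscle and cuticle genes, 2 were above 0 in HMG-minus, with a median of -0.13. The array medians of that list were 0.03, 0.14, -0.48 and -0.16 in HMG-minus, on both sides of 0. They ran from -0.52 to 0.95 in EnRep and from -0.46 to 0.73 in DichaeteWT. The part of embryo age and of maternal RNA in the core ratios was not tested.

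Some probes had 1 sign on all 4 arrays of a construct. In EnRep 4 of 42 proteasome probes (9.52%) were above 0 on all 4 arrays and 4 (9.52%) below, where 9.35% and 7.15% of all probes were. In DichaeteWT the counts were 5 (11.9%) and 1 (2.38%), beside 7.19% and 7.08%. In HMG-minus they were 6 (14.3%) and 1 (2.38%), beside 8.22% and 7.85%, and the 6 were Prosalpha3, Prosalpha4, Prosalpha7, both Prosbeta7 probes and Prosbeta2R1. No proteasome probe kept its sign over all 12 arrays, where 0.580% of all probes were always above 0 and 0.663% always below.

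The duplicate genes gave the widest ratios. Their medians were 0.04 in EnRep, -0.05 in DichaeteWT and 0.04 in HMG-minus, but single ratios ran from -0.38 to 0.44. Probe sequences are not used here, so cross-hybridisation between a duplicate and its parent gene was not tested.

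Prosbeta5R2, a duplicate of the catalytic subunit Prosbeta5, was the highest member in EnRep and in DichaeteWT. It read 0.49, 0.64, 0.26 and 0.36 in EnRep and 0.47, 0.34, 0.21 and 0.31 in DichaeteWT. All 8 values were above 0, in both dye orientations. In HMG-minus 3 arrays read -0.16, -0.12 and -0.05 and replicate 2 read 0.61. Fitted ratios were 0.44 ± 0.10 in EnRep (a fold of 1.36, adjusted p = 0.0740), 0.33 ± 0.10 in DichaeteWT (0.139) and 0.07 ± 0.10 in HMG-minus (0.833). The EnRep ratio was called with print-tip loess, with array weights and without HMG-minus replicate 1 or 2, where the adjusted p was 0.0282, 0.0195, 0.0430 and 0.0158. Its parent gene Prosbeta5 differed in sign between the dye orientations, as given above.

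Prosalpha1R, a duplicate of Prosalpha1, was the lowest member in DichaeteWT and in HMG-minus. It read 0.13, 0.06, -0.92 and -0.78 in DichaeteWT, 0.22, 0.14, -0.83 and -0.32 in EnRep and -0.02, 0.32, -0.62 and -0.67 in HMG-minus. The low values were those of the 6 arrays with the construct in Cy5, whose mean was -0.69, beside 0.14 on the 6 with it in Cy3. The fitted ratio in DichaeteWT was -0.38 ± 0.09 (a fold of 0.770, adjusted p = 0.0720), which passed the threshold in 6 of 23 alternatives, among them median centring (0.0198) and the deposited ratios (0.0204).

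Prosbeta2R1, a duplicate of Prosbeta2, read 0.92, 0.60, 0.06 and 0.13 in HMG-minus and between -0.27 and 0.65 in the other constructs. Its fitted ratio in HMG-minus was 0.43 ± 0.11 (adjusted p = 0.112), and it ranged from 0.20 with no background correction to 0.71 with the smaller offset. The spot was accepted in both channels on 1 of 12 arrays, and on 3 of 4 HMG-minus arrays in the construct's channel. Rpn13R, a duplicate of Rpn13, read 0.24, 0.21, 0.40 and 0.21 in DichaeteWT, for a ratio of 0.27 (adjusted p = 0.0842), while Rpn13 itself stood at -0.18.

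The mean of the 3 constructs over GFP draws on all 12 arrays and so has the smallest errors. It called 4 of 42 proteasome probes (9.52%), where 10.0% of all probes were called (5.13% higher and 4.91% lower), so the members' share was close to that of the array. Prosalpha4, Prosalpha7 and Prosbeta5R2 rose and Prosalpha1R fell. The labels do not say whether GFP RNA was shared between arrays, and if it was, these p-values are too small.

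The mean ratio of Prosbeta5R2 was 0.28 ± 0.06 (SE, n = 12 arrays), a fold of 1.21, with an adjusted p of 0.0111, and 9 of 12 arrays were above 0. It kept its call in all 23 alternatives tried, with adjusted p from 0.00143 to 0.0465. Prosalpha1R had a mean of -0.27 ± 0.05, a fold of 0.827, with an adjusted p of 0.00634. It was below 0 on 7 of 12 arrays and lost the call with no dye term (adjusted p = 0.284). Prosalpha4 had a mean of 0.20 ± 0.05 (adjusted p = 0.0263), with 10 of 12 arrays above 0, and Prosalpha7 had 0.21 ± 0.06 (0.0353), also with 10 of 12. These calls were lost in 9 of 22 and in 13 of 23 alternatives, both among them without EnRep replicate 1, without EnRep replicate 2, without HMG-minus replicate 3 and without HMG-minus replicate 4.

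**Figure D4:**
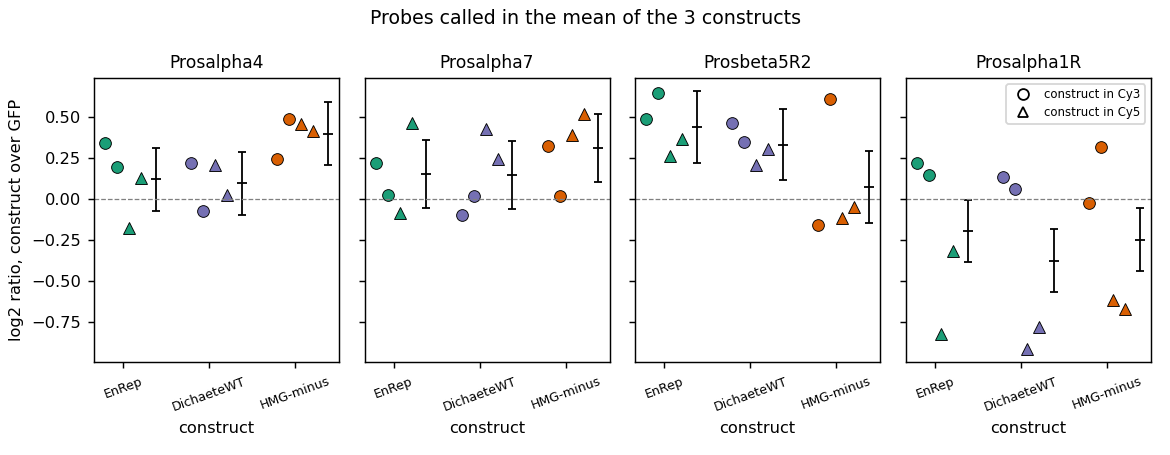
Log2 ratio of construct over GFP on each array (coloured points, circles for the construct in Cy3 and triangles for Cy5) for the 4 probes called in the mean of the 3 constructs, with the fitted ratio of each construct and its 95% interval in black. Prosbeta5R2 lies above 0 on all EnRep and DichaeteWT arrays, while the low values of Prosalpha1R are those with the construct in Cy5.

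Differences between constructs were tested in the same fit. None of the 42 proteasome probes was called in EnRep minus DichaeteWT (0.0207% of all probes called, 0.0138% higher and 0.00690% lower), HMG-minus minus DichaeteWT (0% called) or EnRep minus HMG-minus (0.0276% called, 0.0207% higher and 0.00690% lower). At an unadjusted p below 0.05 in limma the counts were 2, 8 and 6 of 42 (4.76%, 19.0% and 14.3%), beside 4.46%, 5.27% and 6.85% of all probes. All 12 core genes had a higher fitted ratio in HMG-minus than in DichaeteWT, by a median of 0.21, beside 7047 of 14485 probes. Against EnRep, 11 of 12 core genes were higher in HMG-minus, beside 6895 of 14485 probes. For the 14 regulatory genes the counts were 7 and 9. These comparisons share the HMG-minus arrays. Of the core and regulatory genes Prosalpha5 differed most, by 0.45 in HMG-minus minus DichaeteWT (95% interval 0.12 to 0.79, adjusted p = 0.845). In EnRep minus HMG-minus it differed by -0.43 (-0.77 to -0.10, adjusted p = 0.661). Over all members the widest in EnRep minus HMG-minus was the duplicate Prosbeta2R1, at -0.48 (limma adjusted p = 0.65). For Prosbeta5R2, EnRep minus HMG-minus was 0.37 (0.06 to 0.67, adjusted p = 0.688).

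More proteasome probes were called for dye orientation than for the mean of the constructs, which uses the same 12 arrays. The whole array did the same, with 33.1% of all probes called for dye orientation and 10.0% for the mean. The dye term, shared by all arrays and equal to the shift from 0 in 1 orientation, was called for 13 of 42 proteasome probes (30.95%). The members' share was thus close to that of the array. Of the 13, 10 read higher with the construct in Cy3 and 3 with it in Cy5, where 16.6% and 16.5% of all probes did. The called core genes were Prosalpha2, Prosalpha6, Prosbeta4 and Prosbeta5, all higher in Cy3. Prosalpha6, an alpha subunit, averaged 0.39 over the 6 Cy3 arrays and -0.41 over the 6 Cy5 arrays, with a dye term of -0.40 (adjusted p = 0.000235). In the regulatory particle Rpt4 averaged 0.38 and -0.25 and Rpn5, a lid scaffold, 0.34 and -0.26. Rpt5, an ATPase, went the other way, with -0.36 and 0.20, as did Rpt3 and Rpn2. Over all 12 arrays the orientation means had opposite signs for 25 of 42 proteasome probes (59.5%), beside 61.7% of all probes.

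**Figure D5:**
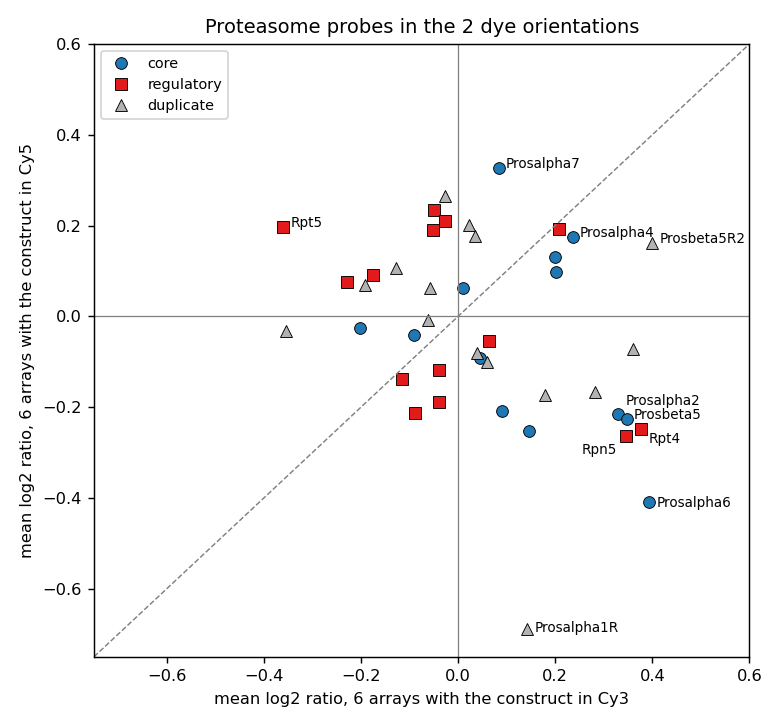
Mean log2 ratio of construct over GFP over the 6 arrays with the construct in Cy5 (vertical) against the 6 with it in Cy3 (horizontal) for each of the 42 proteasome probes, with equal values on the dashed line. Prosalpha6, Rpt4, Rpn5 and Prosbeta5 lie far below the line at the lower right and Prosalpha1R lowest, while Prosalpha4 and Prosbeta5R2 are above 0 in both orientations.

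Genes that work around the proteasome were counted in 6 lists with 64 genes, of which 59 were measured on 63 probes. No probe of these lists was called in a single construct, where 0.753% to 0.863% of all probes were. In EnRep, DichaeteWT and HMG-minus 7, 12 and 8 of 63 (11.1%, 19.0% and 12.7%) had an unadjusted p below 0.05, beside 14.1%, 15.6% and 13.0% of all probes. In the mean of the 3 constructs 5 were called (7.94%), 2 higher and 3 lower, beside 10.0% of all probes, so the lists' share was below that of the array.

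Among 7 assembly and associated factors, Uch-L5, a deubiquitinase that docks on Rpn13, had the smallest p. It read 0.68, 0.36, 0.23 and 0.30 in HMG-minus, above 0 on all 4 arrays, with a ratio of 0.39 ± 0.10 (adjusted p = 0.107). In EnRep and DichaeteWT it stood at 0.12 and -0.04. The list's median was -0.08, -0.01 and 0.10 in EnRep, DichaeteWT and HMG-minus.

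The transcription list held 4 genes and includes cnc, the fly relative of the Nrf factors that control proteasome genes. Its medians were 0.01, 0.05 and 0.06, and cnc stood at 0.08, 0.15 and 0.02. Pngl, a peptide N-glycanase, had the smallest p, at 0.19 ± 0.08 in EnRep (adjusted p = 0.326). Of 9 measured genes for ubiquitin and its delivery, 2, 2 and 7 were above 0 in the 3 constructs. Ubi-p5E, which encodes chains of ubiquitin, read -0.65, -0.60, -0.10 and -0.02 in EnRep, for -0.34 ± 0.11 (adjusted p = 0.192), and in DichaeteWT it ran from -0.90 to 0.52.

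In the list of ubiquitin ligase cores, Roc1b, a RING subunit of cullin ligases, was below 0 on all 12 arrays, from -0.84 to -0.06. Its mean over the constructs fell by 0.37 ± 0.07 on the log2 scale (adjusted p = 0.00618), and the call held in all 23 alternatives. SkpA, the adaptor of those ligases, had 3 probes, of which 1 was called higher, at 0.19 (adjusted p = 0.0453), and the others stood at 0.04 and 0.09. That call was lost in 16 of 22 alternatives.

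The COP9 signalosome and eIF3 resemble the proteasome lid in the build of their subunits. Of 8 measured signalosome genes, 1, 1 and 2 were above 0 in EnRep, DichaeteWT and HMG-minus, with medians of -0.12, -0.20 and -0.02. In the mean of the constructs CSN6 fell by 0.17 (adjusted p = 0.0374), and alien, another signalosome subunit, fell by 0.18 (0.0246) on 1 of its 2 probes, with the other at -0.08. CSN6 was below 0 on all 6 Cy5 arrays, from -0.67 to -0.35, but ran from -0.02 to 0.36 on the 6 Cy3 arrays. Its call was lost in 12 of 23 alternatives. Of the 16 eIF3 genes, eIF3f1 rose by 0.25 (adjusted p = 0.0138), with 11 of 12 arrays above 0, and the list's median was -0.02.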

How the data were processed

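Total RNA of 12 samples was measured on two-colour arrays. Per the file headers, the authors' array files hold raw intensities of each spot and of its surroundings in both dyes. The deposited value table holds log2 ratios of construct over GFP, made by the authors with limma per the submitters' processing notes, without a version; their normalization method is not given in the sources used here. The genome build is not given either, and no coordinates are printed.

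The analysis used R 4.3.3 and limma 3.58.1. Background was corrected by normexp (offset 50), fitted on all 18240 spots. Loess with a span of 0.3 was applied on the 14569 spots of the value table, ratios were turned to construct over GFP, and spots of 1 probe were averaged, which gave 14485 probes. Gene names came from the platform annotation. The limma fit had 3 construct terms and 1 dye term, 8 residual and 4.6 prior degrees of freedom, and Benjamini-Hochberg adjustment over all probes. Tests were two-sided. Errors are standard errors of that fit. A gene with several probes entered a median as their mean.

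The model was tested on simulated data. The members and lists were chosen with earlier results of these data known. Full statistics were given for every member called, for the member of each role with the largest moderated t in each construct, and for Prosbeta2 and Prosbeta5; from other lists the called genes or the 1 with the smallest p. Others were named for their sign on all arrays, their place among the extremes or their dye term, after their values were seen. Replicate numbers were not treated as pairs, since no pairing was shown. Correlations of same-numbered residuals ran from -0.64 to 0.24, and 2 of 12 pairs were above 0.1, which cannot exclude a pairing. Alternatives changed the normalization, the background step and its offset, the filter on dim probes, the terms of the model (no dye term, replicate block), the variance prior or the weights and arrays used, took the deposited ratios, or left out each array in turn. Restricting to accepted spots was added after seeing the data.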

Additional observations from a re-analysis of the deposited data

Results flagged for a closer look

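In groups of 4 arrays, 1 array stood apart from the other 3 by Dixon's test in 9 of 150 groups of members and medians, and chance flags about 1 in 20. In EnRep, Rpt5 read 0.70 on replicate 3 beside -0.55 to -0.39 on the others, Rpn12 0.69 on replicate 4 beside 0.14 to 0.19, and Rpn6 0.12 on replicate 2 beside -0.05 to -0.03. On EnRep replicate 1, Prosalpha4T1 read 0.60 beside -0.13 to -0.11, and Rpt4R 0.34 beside -0.07 to -0.05. In HMG-minus, Rpn11 read 0.23 on replicate 1 beside -0.25 to -0.16, and the lid median was 0.11 on the same array beside -0.13 to -0.10. Prosbeta5R2 read 0.61 on HMG-minus replicate 2 beside -0.16 to -0.05. In DichaeteWT, Rpn13R read 0.40 on replicate 3 beside 0.21 to 0.24. The cause was not tested for any of these.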

How the results depend on the processing

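Each result was recomputed under up to 24 alternatives. Of the single-gene results 674 kept their direction and side of the threshold, 57 lost a call, 21 gained one and 11 turned sign. Prosbeta5R2 and Roc1b kept their calls in the mean of the constructs under all 23. The causes of the changes below were not tested, except that the probe filters test fewer probes and the left-out arrays leave fewer samples. The limits are 4 arrays for each construct, dye terms called for a large share of probes, and few accepted spots for Rpn12 and Prosbeta2R1.

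In EnRep 1 of 42 proteasome probes (2.38%) was called with median centring, print-tip loess, the deposited ratios and array weights. The shares over all probes there were 0.822%, 1.83%, 0.656% and 2.44%. In DichaeteWT 1 (2.38%) was called with no background correction, median centring, print-tip loess, the deposited ratios and array weights. All probes there gave 1.18%, 0.773%, 3.22%, 0.449% and 1.91%. HMG-minus had 3 with print-tip loess (7.14%), 1 with the deposited ratios (2.38%) and 8 with array weights (19.0%). The all-probe shares in those settings were 2.62%, 1.28% and 7.59%. In the mean of the constructs the main fit called 4 of 42 proteasome probes and 1454 of 14485 probes in all. The proteasome calls there were 9 with median centring, 11 with print-tip loess, 1 with no dye term and 9 with array weights. Calls over all probes moved too, to 2231, 2426, 401 and 2982 in the same order. Proteasome calls in the mean were 7 with the deposited ratios and 2 with accepted spots only, where 16 of the 42 probes remained. The all-probe counts of these settings are not given here. With an array left out the proteasome calls were 0 to 1 in each construct and 2 to 5 in the mean, where 767 to 1653 of all probes were called.

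Over all probes, calls in EnRep were 265 with print-tip loess, 29 with no dye term, 4 with its own arrays alone, 9 with a trended and robust variance and 353 with array weights. In DichaeteWT they were 466, 25, 63, 6 and 276 in the same order, and 65 with the deposited ratios. In HMG-minus they were 380, 23, 248, 9 and 1099, with 76 after median centring and 57 with accepted spots only. In the mean they were 2231 with median centring, of which 889 were higher, 2426 with print-tip loess, 401 with no dye term and 2982 with array weights. For EnRep minus DichaeteWT they were 5 with print-tip loess, 1 with a trended and robust variance and 0 with accepted spots only. For HMG-minus minus DichaeteWT they were 3 with print-tip loess and 2 with array weights. For EnRep minus HMG-minus they were 2 with no background correction, no dye term, own arrays alone or a trended and robust variance, 1 with the dimmest 25% of probes left out, 8 with array weights and 0 with accepted spots only. With an array left out, calls ran from 21 to 202 in EnRep, 16 to 235 in DichaeteWT, 17 to 238 in HMG-minus and 767 to 1653 in the mean, and from 2 to 4, 0 to 2 and 2 to 14 in these 3 differences. The lowest counts in EnRep, DichaeteWT and HMG-minus came without EnRep replicate 2, DichaeteWT replicate 2 and HMG-minus replicate 4.

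Whether the replicate numbers pair the arrays was not settled. With the replicate block in place of the dye term, calls were 53 in EnRep, 39 in DichaeteWT, 62 in HMG-minus, 1014 in the mean and 2 in EnRep minus HMG-minus. Proteasome calls in the mean were then 2, with adjusted p of 0.0537 for Prosalpha4, 0.0553 for Prosalpha7, 0.0132 for Prosalpha1R and 0.0169 for Prosbeta5R2.

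With median centring the core median in EnRep was -0.19 and the regulatory median -0.24 in EnRep and -0.13 in DichaeteWT; with the deposited ratios the regulatory median in EnRep was -0.20. With an array left out these ran from -0.06 to 0.07, -0.10 to 0.00 and -0.02 to 0.03.

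Signs turned for Rpn12 in EnRep with no background correction (-0.21) and the deposited ratios (-0.23), and for Prosalpha7 in EnRep with median centring (-0.099) and the deposited ratios (-0.0105). For Prosbeta5 in EnRep the deposited ratios gave -0.11 and median centring gave -0.20, and its value ran from -0.063 (without EnRep replicate 1) to 0.12 with an array left out. Prosbeta2 in DichaeteWT was 0.010 with array weights and ran from -0.28 to 0.0497 (without DichaeteWT replicate 3) with an array left out. In HMG-minus Prosbeta2 was -0.015 with median centring and ran from -0.0126 (without HMG-minus replicate 4) to 0.15.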
